A study of Mus musculus with 24 samples.

Results

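The genes followed here are 10 core components of insulin receptor signalling in IWAT, the inguinal white fat that lies under the skin of the mouse groin. They are the receptor Insr, its docking substrates Irs1 and Irs2, the adaptors Grb10 and Grb14, the phosphoinositide 3-kinase subunit Pik3r1, the kinases Akt1 and Akt2, the transcription factor Foxo1 and the GLUT4 traffic regulator Tbc1d4. They were chosen by name, and all 10 were among the 16821 genes of the count table and passed the filter on low counts. A library held between 106 reads (Grb10) and 4696 reads (Pik3r1) of a single one of these genes.

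The tissue came from 24 male C57BL6/J mice of 4 months of age, 6 per diet and 1 library per mouse, profiled by 3′ mRNA sequencing. The elemental MR diet supplied free amino acids with 0.17% methionine (MR, methionine restriction), and the elemental control diet supplied them with 0.86%. The oxidized casein MR diet was built on casein that lost its methionine through oxidation and was brought back to 0.17%, and the casein control diet held intact casein at 0.86%. All mice began their diet at 5 weeks of age, ate it for 12 weeks and were killed after a fast of 4 h. In the casein pair the methionine level and the oxidation of the protein changed together and cannot be told apart. The design text of the series speaks of liver, whereas its title and sample labels name IWAT. Adipocyte markers averaged 9.90 to 11.4 log2 CPM (CPM, read counts scaled to a common library total, on the log2 scale) in the 24 libraries, and hepatocyte markers 2.14 to 10.1, with the highest value in elemental control 6.

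Insulin binding makes the receptor phosphorylate Irs1 and Irs2, which recruit Pik3r1 and the catalytic subunit it carries. The lipid that this kinase makes activates Akt1 and Akt2. Akt then keeps Foxo1 out of the nucleus and silences Tbc1d4, so that vesicles with the glucose transporter GLUT4 reach the cell surface. Grb10 and Grb14 bind the activated receptor and dampen it. Most of this control acts through phosphorylation and location, which counts of transcripts do not measure. In adipose tissue the pathway is known for driving glucose uptake and fat synthesis and for restraining lipolysis.

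Promoter windows are shown for the paralogous adaptors Grb14, whose level differed with MR, and Grb10, whose level did not pass the test. Both sequences are RefSeq windows of GRCm38.p6, given 5′ to 3′ in the direction of transcription, from 250 bases before to 50 bases after the annotated start. Capitals mark GC boxes (GGGCGG on either strand, overlapping matches counted), the motif known to bind Sp1 family factors.
Grb14, chr2:65022717-65023016, minus strand: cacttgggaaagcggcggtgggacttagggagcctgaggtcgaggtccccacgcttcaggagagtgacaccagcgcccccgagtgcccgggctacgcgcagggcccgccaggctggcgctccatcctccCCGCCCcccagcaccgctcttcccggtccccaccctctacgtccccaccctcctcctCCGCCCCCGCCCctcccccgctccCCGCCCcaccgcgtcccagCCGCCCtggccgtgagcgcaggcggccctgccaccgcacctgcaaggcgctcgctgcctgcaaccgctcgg
Grb10, chr11:12037371-12037670, minus strand: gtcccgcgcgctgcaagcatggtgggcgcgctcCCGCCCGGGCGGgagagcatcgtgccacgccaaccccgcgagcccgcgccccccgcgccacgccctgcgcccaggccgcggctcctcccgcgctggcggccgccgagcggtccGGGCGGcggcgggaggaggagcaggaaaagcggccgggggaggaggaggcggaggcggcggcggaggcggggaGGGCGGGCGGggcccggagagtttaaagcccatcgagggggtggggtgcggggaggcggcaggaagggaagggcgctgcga

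Each of these windows held 5 GC boxes, at 75.3% G and C in Grb14 and 80.0% in Grb10. RefSeq gave 15 windows for 9 of the 10 genes and none for Insr. At least 1 GC box stood in 9 of these 15 windows, 1 window for each gene, against 35.7% of all 32851 mouse promoter windows of this length. The core motif of FOXO factors, GTAAACA on either strand, stood in 1 window, of Akt1 (3.65% of all windows). The composite motif of C/EBP and ATF factors, TGATGNAAN, stood in 1 window, of Akt2 (3.95%), and the E-box CACGTG in those of Irs1 and Irs2 (7.15%). Each match is a description of these letters and was not tested as a binding site.

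Library totals ran from 7468336 to 19868913 reads. B cell markers averaged above 4 log2 CPM in 15 of the 24 libraries, which then hold transcripts of the lymph node embedded in this pad. These were 5 of 6 elemental MR, 4 of 6 elemental control, 2 of 6 oxidized casein MR and 4 of 6 casein control libraries. Skeletal muscle actin (Acta1) reached 1239 CPM in elemental MR 2 and 2946 CPM in elemental control 2, against at most 166.3 CPM elsewhere. Fewer cells of a type and less RNA per cell cannot be told apart in such bulk tissue. In each sentence below a level is a CPM value and a difference is a log2 fold change. A gene was called where its edgeR p-value, adjusted over the 15176 genes tested, was under 0.05.

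Across the diets 1 of the 10 genes was called. Grb14 fell with MR when the effect was averaged over both protein sources, by 1.003 on the log2 scale, which is 2.01-fold lower. The other 9 genes were not called in any of the 6 comparisons made. Their averaged MR differences lay between -0.21 for Foxo1 and 0.32 for Insr, with Grb10 at -0.18, Irs2 at -0.081 and Akt2 at 0.17. In that averaged comparison 6.99% of all genes tested were called, and 1.76% were called as lower. The share of 1 in 10 genes is near the 6.99% of all genes.

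**Figure D1:**
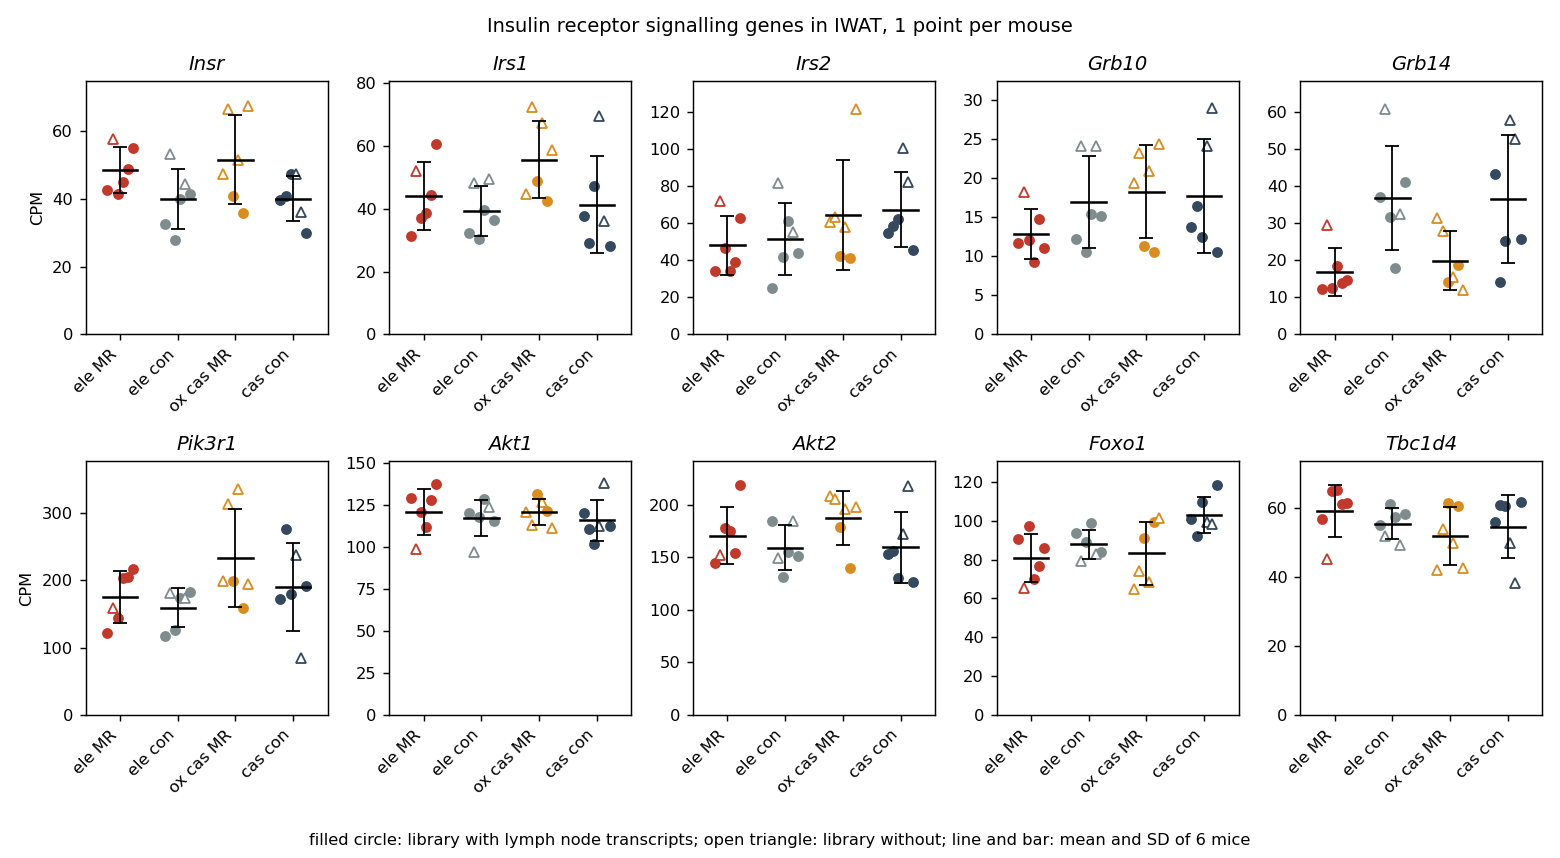
CPM of each of the 10 genes in every mouse (y axes, from 0) by diet (x axes; ele, elemental; ox cas, oxidized casein; con, control). Filled circles are libraries with lymph node transcripts, open triangles libraries without, and lines with bars the mean and SD of 6 mice; Grb14 shows the lower MR groups, with means of 16.9 and 19.9 CPM against 36.9 and 36.5 CPM in the controls.

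Insr, the receptor tyrosine kinase itself (chr8:3122061-3279617, GRCm38, minus strand), had a lowest, median and highest level of 41.4, 46.9 and 57.6 CPM on elemental MR, against 27.9, 40.5 and 53.2 CPM on elemental control. It stood at 35.8, 49.3 and 67.1 CPM on oxidized casein MR, against 29.7, 40.1 and 47.2 CPM on casein control. The MR medians were higher in both pairs, while the mice of the diets overlapped. The log2 fold change was 0.28 (SE 0.16, edgeR adjusted p = 0.605) on elemental amino acids and 0.36 (SE 0.16, adjusted p = 0.269) on casein. The average of these was 0.32 (SE 0.12, 95% interval 0.081 to 0.56, adjusted p = 0.104). With the presence of lymph node transcripts as a term, this average was 0.28 (SE 0.093) and Insr was called (adjusted p = 0.0438), in a fit in which 12.8% of all genes were called and 6.96% called as higher. With that term and without both muscle-rich libraries it was 0.30 (adjusted p = 0.0564). Among the 15 libraries with lymph node transcripts, the casein difference was -0.057 (SE 0.19).

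Irs1, the main docking substrate of the receptor in fat cells, had levels of 31.3, 41.6 and 60.6 CPM on elemental MR, against 30.5, 38.1 and 49.5 CPM on elemental control. The casein pair gave 42.4, 53.8 and 72.5 CPM on oxidized casein MR, against 28.2, 37.0 and 69.6 CPM on casein control. Every oxidized casein MR mouse lay above the casein control median, and casein control 4, at 69.6 CPM, was far above the next casein control at 47.3 CPM. The differences were 0.16 (SE 0.21, adjusted p = 0.923) on elemental amino acids and 0.43 (SE 0.21, adjusted p = 0.303) on casein. Their average was 0.29 (SE 0.15, adjusted p = 0.273).

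Irs2, the second substrate, whose gene FOXO factors are known to switch on in liver, had levels of 34.1, 42.9 and 72.0 CPM on elemental MR, against 25.4, 49.8 and 81.8 CPM on elemental control. It had 41.1, 59.4 and 121.9 CPM on oxidized casein MR, against 45.9, 60.5 and 100.6 CPM on casein control. The ranges overlapped over most of their length. The highest value, in oxidized casein MR 6, was far above the next mouse of its diet at 63.4 CPM. Differences with MR were -0.099 (SE 0.28) and -0.062 (SE 0.28), with adjusted p of 0.995 and 0.934. An antisense-strand gene that overlaps Irs2, 9530052E02Rik, averaged 14.5 reads per library beside 724.7 for Irs2, and whether counting used the strand is not given in the sources used here.

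Grb14, an adaptor that binds the active receptor and inhibits its kinase (chr2:64912476-65024987, GRCm38, minus strand), had levels of 12.3, 14.3 and 29.5 CPM on elemental MR, against 18.1, 34.8 and 60.8 CPM on elemental control. On casein it had 11.9, 17.1 and 31.4 CPM with oxidized casein MR, against 14.2, 34.5 and 58.0 CPM in casein controls. The 2 control diets had nearly the same mean, 36.9 ± 14.1 CPM (elemental) and 36.5 ± 17.4 CPM (casein), and the MR diets 16.9 ± 6.54 CPM (elemental) and 19.9 ± 7.94 CPM (oxidized casein; SD, n = 6 each). On elemental amino acids 5 of 6 MR mice lay at or below 18.4 CPM while 5 of 6 controls lay at or above 31.8 CPM. On casein the diets overlapped more, with casein control 2 at 14.2 CPM among the MR mice.

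The separate differences of Grb14 were -1.13 (SE 0.33, 95% interval -1.81 to -0.44, edgeR adjusted p = 0.177) on elemental amino acids and -0.88 (SE 0.33, interval -1.57 to -0.19, adjusted p = 0.164) on casein, and neither was called. Averaged over both, the difference was -1.003 (SE 0.24, interval -1.49 to -0.52, adjusted p = 0.00881). It was called in all 24 fits that left out 1 library, with differences of -1.11 to -0.90 and adjusted p of 0.00297 to 0.0196. In DESeq2 the elemental difference was called as well (-1.13, SE 0.33, adjusted p = 0.0384), in a test that called 0.48% of genes as lower. With the lymph node term the casein difference was called (-1.05, SE 0.27, adjusted p = 0.0183), in a fit that called 7.38% of genes in either direction.

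Within the lymph node classes, elemental MR mice with such transcripts had 12.3 to 18.4 CPM of Grb14, against 18.1 to 41.1 CPM in elemental controls with them. The 4 oxidized casein MR mice without them had 11.9 to 31.4 CPM, against 52.7 and 58.0 CPM in the 2 casein controls without them. The 2 oxidized casein MR mice with them had 14.0 and 18.7 CPM, against 14.2 to 43.4 CPM in the 4 casein controls with them, so this pair overlapped. The 1 elemental MR mouse without them had 29.5 CPM, against 32.6 and 60.8 CPM in the 2 elemental controls without them. That MR mouse and elemental control 2, at 60.8 CPM, gave both muscle-rich libraries. The averaged difference was -0.95 among the libraries with lymph node transcripts (SE 0.23, adjusted p = 0.0432, 0.46% of genes called as lower). Among those without it was also -0.95 (SE 0.39) and was not called, and its elemental part rested on 1 MR mouse.

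Medians of markers of other cells also differed between MR and control, with overlapping ranges in both pairs. The 6 brown or beige adipocyte markers averaged 7.53 to 8.57 log2 CPM on elemental MR, against 3.98 to 7.94 on elemental control. They averaged 5.30 to 8.21 on oxidized casein MR, against 2.89 to 6.52 on casein control. The 6 adipose progenitor markers had medians of 4.97 on elemental MR against 5.40 on elemental control, and 5.50 on oxidized casein MR against 5.64 on casein control. The 6 macrophage markers had medians of 5.48 on elemental MR against 5.89 on elemental control, and 5.52 on oxidized casein MR against 6.04 on casein control. The 3 keratinocyte or ductal epithelium markers had medians of -0.41 on elemental MR against 0.83 on elemental control, and -0.62 on oxidized casein MR against 0.027 on casein control. Krt5 and Krt14 of that list were absent from the data, so they are not in these averages. The 5 hepatocyte markers had medians of 5.74 against 6.45 on elemental amino acids, and 4.05 against 5.29 on casein (MR against control). The 6 endothelium markers had 5.51 against 5.71, and 5.77 against 5.84, in the same order. The 8 adipocyte markers (10.4 against 10.4, then 10.9 against 10.4) were not lower in both pairs. Nor were the 8 skeletal muscle markers (3.1 against 3.5, then 4.46 against 3.13). The part of these cells in the Grb14 difference was not tested.

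Grb10, the imprinted paralogue of Grb14 and a substrate of mTORC1, had levels of 9.25, 11.9 and 18.2 CPM on elemental MR, against 10.6, 15.4 and 24.2 CPM on elemental control. It had 10.6, 20.2 and 24.4 CPM on oxidized casein MR, against 10.6, 15.1 and 29.1 CPM on casein control. The ranges of MR and control mice overlapped in both pairs. The differences were -0.40 (SE 0.27, adjusted p = 0.672) on elemental amino acids and 0.041 (SE 0.27, adjusted p = 0.956) on casein. With the lymph node term the casein difference was -0.24 (SE 0.13, adjusted p = 0.314), so its sign rested on that choice.

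**Figure D2:**
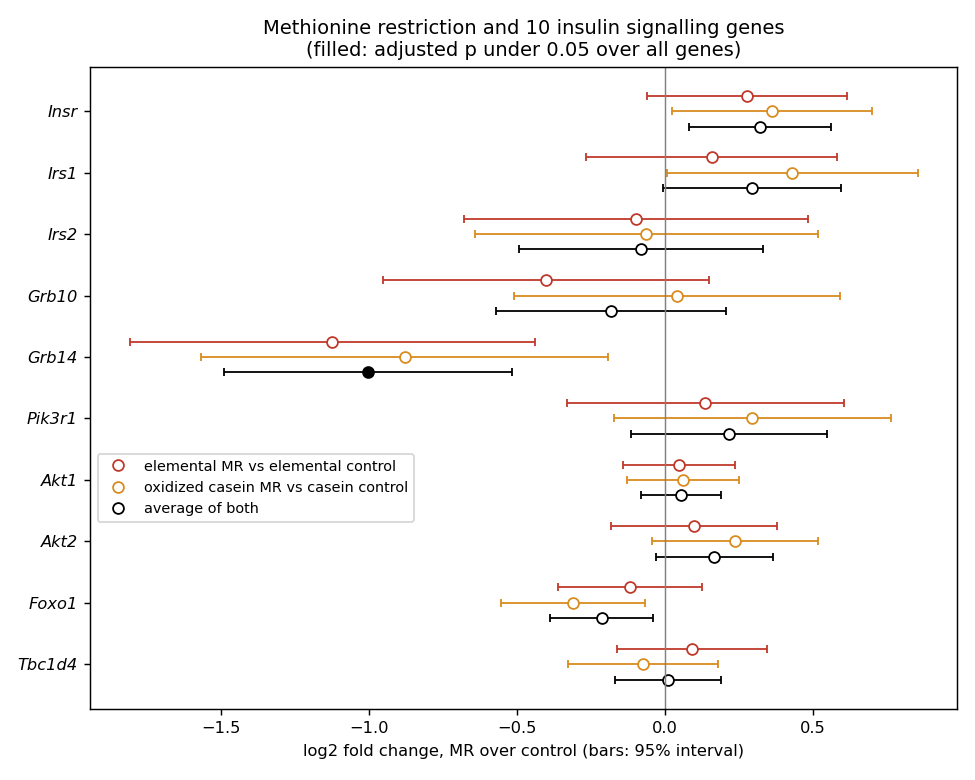
Log2 fold change of each gene, MR over control (x axis), with its 95% interval, for elemental amino acids, casein and their average. The filled point, Grb14 averaged at -1.003, is the single called value, and every interval of Akt1, Irs2, Grb10, Pik3r1, Akt2 and Tbc1d4 crosses 0.

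Pik3r1 encodes the p85α regulatory subunit of phosphoinositide 3-kinase. It had levels of 121.4, 181.1 and 216.2 CPM on elemental MR, against 117.6, 173.8 and 182.1 CPM on elemental control. It had 158.4, 199 and 336.7 CPM on oxidized casein MR, against 84.6, 185.6 and 275.8 CPM on casein control. Oxidized casein MR 2 and 4, at 313.3 and 336.7 CPM, were the highest of all 24 mice, and casein control 5 was the lowest. The differences were 0.14 (SE 0.23) and 0.30 (SE 0.23), with adjusted p of 0.962 and 0.553, and their average was 0.22 (SE 0.16).

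Akt1, the kinase isoform linked mainly to growth, was the steadiest of the 10 genes, at 97.3 to 138 CPM over all 24 mice, a 1.42-fold range. Its means were 121.2 ± 13.8 CPM on elemental MR against 117.2 ± 10.8 CPM on elemental control, and 121 ± 7.6 CPM on oxidized casein MR against 116 ± 12.3 CPM on casein control (SD, n = 6 each). The averaged difference of 0.054 had a 95% interval of -0.080 to 0.19 (adjusted p = 0.718). Akt2, the isoform that carries most of the metabolic action of insulin in fat, had levels of 144.8, 164.3 and 218.8 CPM on elemental MR, against 130.9, 153.1 and 184.6 CPM on elemental control. It had 139.6, 197 and 208.2 CPM on oxidized casein MR, against 126.3, 154.7 and 217.9 CPM on casein control. In the casein pair 5 of 6 MR mice lay above 5 of 6 controls, while the ranges overlapped. The differences were 0.098 (SE 0.14, adjusted p = 0.935) and 0.24 (SE 0.14, adjusted p = 0.405).

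Foxo1, the forkhead factor that Akt holds in the cytoplasm, had levels of 65.5, 81.3 and 97.5 CPM on elemental MR, against 79.1, 86.4 and 99.0 CPM on elemental control. It had 65.0, 82.6 and 101.3 CPM on oxidized casein MR, against 92.3, 100.3 and 118.4 CPM on casein control. Of the oxidized casein MR mice, 4 lay below every casein control. The casein difference was -0.31 (SE 0.12, 95% interval -0.56 to -0.066, adjusted p = 0.168), and the elemental difference was -0.12 (SE 0.12, adjusted p = 0.861). The average of -0.21 (SE 0.084) was not called either (adjusted p = 0.14).

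Tbc1d4, the Rab GTPase-activating protein AS160 that retains GLUT4 vesicles until Akt phosphorylates it, had levels of 45.1, 61.4 and 65.4 CPM on elemental MR, against 49.3, 56.3 and 61.4 CPM on elemental control. It had 42.2, 52.0 and 61.5 CPM on oxidized casein MR, against 38.3, 58.3 and 62.0 CPM on casein control. The ranges overlapped in both pairs. The differences were 0.092 (SE 0.12, adjusted p = 0.927) and -0.075 (SE 0.12, adjusted p = 0.801), and their average was 0.0087 with an interval of -0.17 to 0.19.

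Set beside all genes, MR called 0.244% of genes on elemental amino acids and 3.82% on casein, and none of the 10 in either. At an unadjusted p under 0.05, 1 of the 10 passed on elemental amino acids (Grb14), where 10.2% of all genes did, and 4 on casein (Grb14, Foxo1, Insr and Irs1), where 16.1% of all genes did. DESeq2 called 1 of them on elemental amino acids and 0 on casein, and limma voom 0 in both.

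The question of whether the MR effect differed between protein sources was put to the difference of the 2 differences, casein minus elemental. None of the 10 genes was called (0% of all genes in edgeR, 0 of the 10 in DESeq2 and limma voom, and 0 at an unadjusted p under 0.05, which 3.33% of all genes passed). Grb14 had the widest interval, -0.72 to 1.21 around 0.25 (SE 0.47, adjusted p = 0.921), and Akt1 the narrowest, -0.26 to 0.28 around 0.013. Grb10 had 0.44, with an interval of -0.34 to 1.22. The values of the docking substrates were 0.27 for Irs1 and 0.036 for Irs2, and Insr had 0.085. Pik3r1 had 0.16, Akt2 0.14, Foxo1 -0.19 and Tbc1d4 -0.17. These intervals still hold differences of over 1 log2 unit for Grb10 and Grb14.

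The protein sources were also compared directly. Between casein control and elemental control 0.659% of genes were called and none of the 10, with 0 of them at an unadjusted p under 0.05, which 12.6% of all genes passed. Foxo1 averaged 103.3 ± 9.3 CPM on casein control, against 87.9 ± 7.52 CPM on elemental control (difference 0.23, SE 0.12, adjusted p = 0.435). Irs2 averaged 67.5 ± 20.3 CPM on casein control, against 51.6 ± 19.3 CPM on elemental control (0.39, SE 0.28, adjusted p = 0.683). Pik3r1 differed by 0.26, Irs1 by 0.068, Grb10 by 0.065, Insr by 0.0054, Akt2 by 0.0011, Grb14 by -0.012, Akt1 by -0.015 and Tbc1d4 by -0.024. Between oxidized casein MR and elemental MR 0% of genes were called, and none of the 10 passed an unadjusted p of 0.05, against 6.98% of all genes. Grb10 differed by 0.51 (SE 0.27), Irs2 by 0.42 (SE 0.28), Pik3r1 by 0.42 (SE 0.23), Irs1 by 0.34 (SE 0.21) and Tbc1d4 by -0.19 (SE 0.12), with adjusted p between 0.741 and 0.789. The others were Grb14 at 0.235, Akt2 at 0.14, Insr at 0.090, Foxo1 at 0.038 and Akt1 at -0.0017. The 6 comparisons share libraries, so their values are not independent of each other.

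Several of the 10 genes differed with lymph node transcripts. In the fit with that term, 7 of the 10 differed between the 15 libraries with and the 9 without lymph node transcripts, where 45.8% of all genes were called. Insr, Irs1, Irs2, Grb10 and Grb14 were lower in the libraries with lymph node transcripts, and Foxo1 and Tbc1d4 were higher. Grb10 had the largest difference, -0.90 (SE 0.097, adjusted p = 2.32e-08). It ran from 9.25 to 16.4 CPM in the libraries with lymph node transcripts, against 18.2 to 29.1 CPM in those without, with no overlap over the 24 mice.

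Irs2 differed by -0.75 (SE 0.15, adjusted p = 0.00029), Grb14 by -0.73 (SE 0.20, adjusted p = 0.00429), Irs1 by -0.46 (SE 0.13, adjusted p = 0.00395) and Insr by -0.37 (SE 0.10, adjusted p = 0.00445). Tbc1d4 differed by 0.36 (SE 0.067, adjusted p = 8.53e-05) and Foxo1 by 0.22 (SE 0.082, adjusted p = 0.0311). Akt2 (-0.23, SE 0.096, adjusted p = 0.0562), Pik3r1 (-0.097, SE 0.19) and Akt1 (0.070, SE 0.072) were not called. The classes were read from the libraries themselves and are not groups of the study. They also differed in diet makeup, with 2 of 6 oxidized casein MR libraries in the class with lymph node transcripts against 5 of 6 elemental MR libraries. Adipocyte markers averaged 9.90 to 10.5 log2 CPM in the libraries with lymph node transcripts, against 10.7 to 11.4 in those without. Lymph node and adipocyte content thus moved together, and their parts in these differences cannot be told apart.

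**Figure D3:**
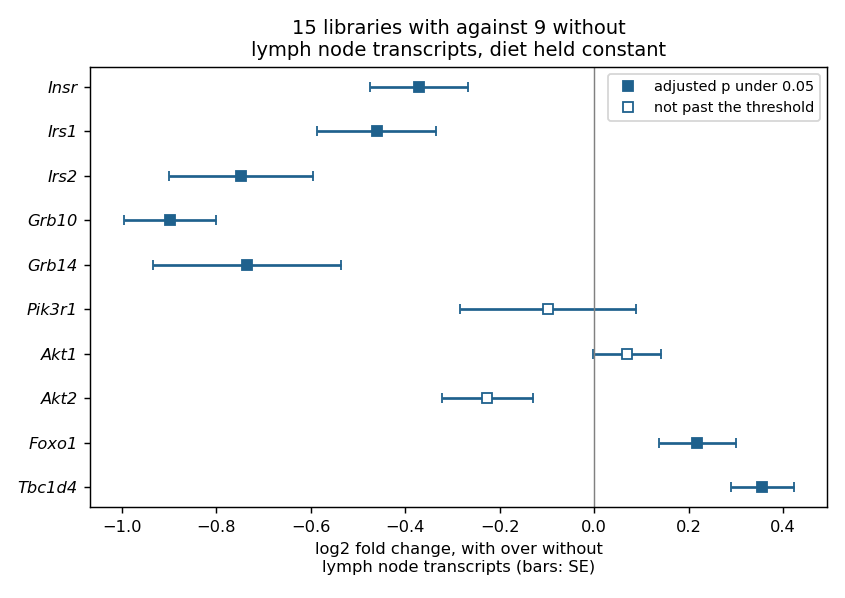
Log2 fold change of each gene in the 15 libraries with over the 9 without lymph node transcripts, diet held constant (x axis), with its SE as bars. Filled squares are called genes: 5 lie below 0, led by Grb10 at -0.90, and Foxo1 and Tbc1d4 lie above 0.

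Other genes of the pathway were read from 6 lists. In the casein comparison 8 of the 14 tested genes listed as induced by insulin in adipocytes were called as higher and none as lower. Of all genes, 3.35% were called as higher. Which factor drives these genes here was not tested. The list's median difference was 1.04, against -0.063 over all genes. The brown or beige adipocyte markers had a median of 7.34 log2 CPM on oxidized casein MR, against 4.68 on casein control, and their part was not tested. Acaca, acetyl-CoA carboxylase of fatty acid synthesis, had levels of 607.9, 652.6 and 857.5 CPM on oxidized casein MR, against 140.2, 270.4 and 551.5 CPM on casein control, with no overlap (1.24, SE 0.24, adjusted p = 0.00619). Insig1, the sterol-regulated retention factor of SREBP, had 90.2, 105.5 and 176.4 CPM on oxidized casein MR, against 32.4, 51.3 and 69.0 CPM on casein control, with no overlap (1.19, SE 0.22, adjusted p = 0.00446). Fasn, fatty acid synthase, rose 2.25-fold, the citrate-cleaving enzyme Acly 2.63-fold, the acyltransferase Gpam 2.33-fold and the elongase Elovl6 3.16-fold. Averaged over both protein sources 6 of the 14 were called as higher, where 5.23% of all genes were. The list's median there was 0.55 against -0.068 over all genes, and Mlxipl (0.81, adjusted p = 0.00408) and Gpam (0.79, adjusted p = 0.00569) led the 6. Of these 6, Acly and Hk2 lost the averaged call in 15 and 17 of 24 fits without 1 library (adjusted p up to 0.104 and 0.0929). In the casein comparison with the lymph node term 8 were again called, the same genes, where 4.54% of all genes were called as higher. Elovl6 was not called without casein control 1, 4 or 6 or without oxidized casein MR 1, with differences of 1.39 to 1.72 and adjusted p of 0.0509 to 0.0922.

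On elemental amino acids none of these 14 genes was called, and 1 passed an unadjusted p under 0.05, against 10.2% of all genes. The list's median there was 0.030, against -0.021 over all genes. Mlxipl, the carbohydrate response factor ChREBP (0.51, SE 0.24, adjusted p = 0.471), and Dgat2 (-0.60, SE 0.31, adjusted p = 0.527) had the smallest p. The difference between the MR effects was above 0 for 14 of 14 of these genes, with a median of 0.85, yet none was called (Insig1 1.53, SE 0.31, adjusted p = 0.703). The casein controls were themselves lower than the elemental controls. There 8 of the 14 were called as lower, where 0.646% of all genes were, and 0 of the 14 lay above 0. The median was -1.04, against 0.023 over all genes. The brown or beige markers had a median of 4.68 log2 CPM on casein control, against 6.48 on elemental control. Mitochondrial genes took 13.8% to 19.9% of reads on casein control, against 15.4% to 28.1% on elemental control, and the part of neither was tested. Elovl6 was 5.27-fold lower, Acly 4.10-fold and Insig1 2.79-fold lower in casein controls. With the lymph node term 8 were called as lower as well, where 1.77% of all genes were. Fitted on its own 2 groups alone, the control comparison called 2 genes in all, against 100 in the main fit. At most 2 of the 8 could thus be called there. Thrsp (-1.32, adjusted p = 0.0218) lost its call in 5 of 24 fits without 1 library. The casein control mice enter both of these comparisons.

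**Figure D4:**
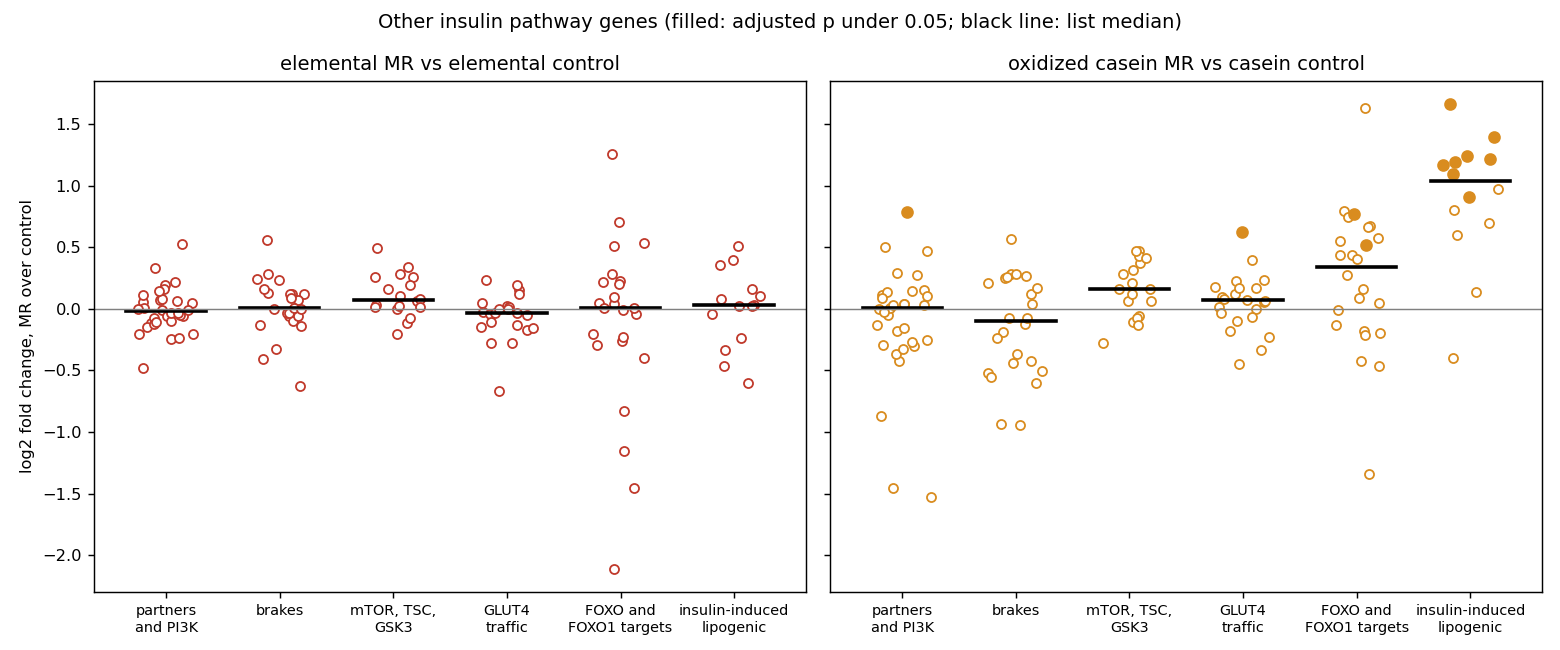
Log2 fold change, MR over control (y axis), of every tested gene in the 6 pathway lists (x axis), on elemental amino acids (left) and casein (right). Filled points are called genes and black lines list medians; the insulin-induced lipogenic list has its median at 1.04 on casein and at 0.030 on elemental amino acids.

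Among the FOXO family and FOXO1 target genes, 2 of 24 tested were called as higher on oxidized casein MR than on casein control, where 3.35% of all genes were. These were Pck1, the glyceroneogenic enzyme PEPCK (0.77, SE 0.19, adjusted p = 0.0221), and Pnpla2, the triglyceride lipase ATGL (0.52, SE 0.15, adjusted p = 0.0467). Averaged over protein sources 5 of 24 were called as higher, where 5.23% of all genes were. They were Pdk4, the kinase that shuts off pyruvate dehydrogenase (1.44, SE 0.39, adjusted p = 0.0241), the coactivator Ppargc1a (0.73, SE 0.15, adjusted p = 0.00335), Pck1 (0.64), the mitochondrial superoxide dismutase Sod2 (0.60) and Pnpla2 (0.40). None was called on elemental amino acids, where 4 of 24 passed an unadjusted p under 0.05, against 10.2% of all genes. Ppargc1a (0.71, SE 0.22, adjusted p = 0.187) and Pck1 (0.51, SE 0.19, adjusted p = 0.316) had the smallest p there. Pck1 had levels of 2535, 3131 and 3533 CPM on elemental MR, against 1775, 2122 and 2529 CPM on elemental control, so these diets did not overlap. On casein it had 2415, 3410 and 4756 CPM with oxidized casein MR, against 1034, 2210 and 2828 CPM with casein control. Leaving out 1 library ended the casein call of Pck1 in 3 of 24 fits (without casein control 6 and without oxidized casein MR 2 or 6, adjusted p of 0.052 to 0.0625) and that of Pnpla2 in 10 (adjusted p up to 0.105, without casein control 6). The brown or beige adipocyte markers moved with the same diets, as given above, and their part was not tested.

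Of the proximal partners 1 of 32 was called as higher on casein, a share near the 3.35% of all genes. Sh2b2, the adaptor APS that binds the activated receptor and recruits Cbl, had levels of 55.5, 67.0 and 104.7 CPM on oxidized casein MR, against 31.7, 44.2 and 56.4 CPM on casein control (0.78, SE 0.19, adjusted p = 0.0163). On elemental amino acids it had 58.4, 82.2 and 108.4 CPM with MR, against 48.5, 52.1 and 92.5 CPM in controls (0.53, SE 0.19, adjusted p = 0.277). Elemental control 1 was the single control among the MR mice there, and without it the elemental difference was 0.68 and was called (adjusted p = 0.0432). The averaged difference was 0.66 (SE 0.13, adjusted p = 0.00257), called in all 24 fits without 1 library. The casein call was lost in 3 such fits, without casein control 1 or 6 and without oxidized casein MR 1 (adjusted p of 0.0507 to 0.0538).

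Of the 24 brakes on insulin signalling, none was called in either separate MR comparison. At an unadjusted p under 0.05, 2 (elemental) and 3 (casein) passed, against 10.2% and 16.1% of all genes. Averaged, 1 of the 24 was called as lower, where 1.76% of all genes were: Ptprf, the receptor phosphatase LAR (-0.54, SE 0.16, adjusted p = 0.042). That call was lost in 15 of 24 fits without 1 library (adjusted p up to 0.0978, without elemental MR 4). In the mTOR, TSC and GSK3 branch, none of 18 was called in either separate comparison. Here 3 (elemental) and 6 (casein) passed an unadjusted p under 0.05, against the same 10.2% and 16.1% of all genes. Without elemental control 1 the elemental difference of Mtor was 0.66 and was called (adjusted p = 0.0352). Averaged, 2 of the 18 were called as higher, where 5.23% of all genes were. They were Mtor (0.48, SE 0.13, adjusted p = 0.0209) and the glycogen synthase Gys1 (0.38, SE 0.11, adjusted p = 0.0383). Gys1 was not called in 11 of 24 fits without 1 library (adjusted p up to 0.0728, without casein control 1). Deptor, an inhibitor within mTOR complexes, fell in casein controls against elemental controls (-0.82, SE 0.19, adjusted p = 0.0461). It was 1 of the 18 called there, where 0.646% of all genes were called as lower. That call was lost in 17 of 24 such fits (adjusted p up to 0.147, without elemental control 1).

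Of 22 genes of GLUT4 vesicle traffic 1 was called as higher on casein, a share near the 3.35% of all genes. Slc2a4, the transporter GLUT4 itself, had levels of 97.0, 128.3 and 172.7 CPM on oxidized casein MR, against 50.9, 82.4 and 110.3 CPM on casein control (0.63, SE 0.18, adjusted p = 0.0457). The call was lost in 9 of 24 fits without 1 library (adjusted p up to 0.122, without casein control 6 or oxidized casein MR 1). On elemental amino acids Slc2a4 had 89.2, 142.7 and 156.5 CPM with MR, against 98.1, 117.1 and 170.6 CPM in controls. No gene of this list was called there, and 0 of 22 passed an unadjusted p under 0.05, which 10.2% of all genes passed. Averaged over both sources Slc2a4 was not called (0.37, SE 0.13, adjusted p = 0.0742). It was called with the lymph node term (0.35, SE 0.11, adjusted p = 0.0303) and in 5 fits without 1 library: without elemental MR 5, elemental control 1, oxidized casein MR 5, or casein control 4 or 5 (adjusted p of 0.0238 to 0.0494).

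The genes whose levels followed Grb14 most closely over the 24 libraries were the Wnt-antagonist metalloprotease Trabd2b (Spearman rho 0.88), the alpha-tubulin Tuba1a (0.88) and the intermediate filament Vim (0.85). Their averaged MR differences were called as well (edgeR adjusted p of 0.00827, 0.00306 and 0.0171), where 6.99% of all genes were. They were picked for following Grb14 in these libraries, so their calls are no separate evidence. For Insr they were Lrrc58 (0.91), the adhesion molecule Negr1 (0.90) and the salt-inducible kinase Sik2 (0.89), none of which was called in the averaged comparison. These correlations describe the same 24 libraries, which share diet, depth and lymph node content.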

How the data were processed

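RNA of IWAT from 24 mice, 6 per diet, was sequenced with QuantSeq, a kit that reads 50 bp at the 3′ end of polyadenylated transcripts, per the labels' protocols, so long transcripts gain no extra reads. The authors deposited whole-number counts for 16821 genes and a table of normalized signal, which is the count table scaled by 1 size factor per library. The submitters' processing notes name R 3.4.3 and DESeq2 1.18.1. Neither the aligner nor the counter, nor whether counting was stranded, is given in the sources used here. The smallest gene total is 72 reads over all libraries. Symbols are those of the deposited table, and coordinates are those of GENCODE M21 (GRCm38).

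Testing used edgeR 4.0.16 under R 4.3.3 on the unscaled counts. Of all genes, 15176 passed filterByExpr and 1645 did not. TMM gave the scaling, and the quasi-likelihood model, with robust dispersions, had a mean for each diet over all 24 libraries. F tests were 2-sided, with p-values adjusted by Benjamini-Hochberg over all genes tested. The threshold was 0.05. CPM uses TMM-scaled totals, with a prior count of 2 on the log2 scale, and errors reflect how mice of a diet vary, since reads without molecular identifiers are not independent molecules. The mice are numbered within a diet by accession order, which pairs no mice. No libraries of a diet agreed within counting error (smallest chi-square per degree of freedom 6.21), and each was counted as 1 mouse.

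A library was taken to hold lymph node transcripts where 10 B cell markers averaged above 4 log2 CPM. Alternatives were DESeq2 1.42.0, limma voom (limma 3.58.1), DESeq2 size factors, no filter, a lymph node term, each lymph node class alone, leaving out both muscle-rich libraries or each library in turn, and only the groups of a comparison. The members, gene lists and alternatives were chosen with earlier results of these data known. All 10 members are named in each comparison. From a list, the called genes are named, at most the 6 with the largest change, or otherwise the 2 with the smallest p. Irs4, Krt5, Krt14 and Trac have no row in the table used, Ctgf was matched as Ccn2, and Foxo6 did not pass the filter. Some listed genes are not reported here. The edgeR fit was tested on simulated data before use.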

Additional observations from a re-analysis of the deposited data

Results flagged for a closer look

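Within each diet, every one of the 10 genes and of the pathway genes named in a comparison was checked for a mouse that lies far from the other 5. This was so in 23 of 216 sets of 6 mice, over 54 genes. The limit used is passed by about 1 in 20 sets of normally distributed values. CPM values need not be normal and the sets share libraries, so no excess can be read from this count. Among the 10 genes, Grb14 stood at 29.5 CPM in elemental MR 2, 1 of the 2 muscle-rich libraries and the single elemental MR library without lymph node transcripts, with the other 5 at 12.3 to 18.4 CPM. Irs2 stood at 121.9 CPM in oxidized casein MR 6, with the others at 41.1 to 63.4 CPM. Without elemental MR 2 the averaged Grb14 difference was -1.11, against -1.003 with it.

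Of the other pathway genes, in CPM, oxidized casein MR 1 stood high in Hk2 (370.2), Insig1 (176.4), Mlxipl (121.0) and Ppp2r5b (24.7), and oxidized casein MR 6 in Klf15 (46.8). Casein control 5 stood high in Dgat2 (1891), Mtor (47.3) and Ppp2r5b (25.3). Elemental control 1 stood high in Acaca (1163), Hk2 (329.4) and Sh2b2 (92.5), elemental control 2 in Klf15 (29.8), elemental control 3 in Pdk4 (215.8) and elemental control 6 in Apoc3 (169.2) and Grb7 (15.3). Elemental control 5 stood high in Insig1 (237.1) and low in Trib2 (16.6). Elemental MR 4 stood high in Acly (1931) and elemental MR 2 in Ptprf (21.8), while elemental MR 3 was low in Pdk4 (80.9) and elemental MR 1 low in Pnpla2 (1567). Elemental control 6 also had the highest hepatocyte marker average of the 24 libraries, 10.1 log2 CPM. Why these mice stood apart was not tested.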

How the results depend on the processing

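Over 4711 recomputed log2 fold changes, 4325 kept their direction and side of the threshold, and 144 were uncalled values whose sign changed by no more than 1 SE. A call was lost in 182 and gained in 19, and 41 uncalled values turned sign by more. The cause was not tested. The averaged Grb14 difference was called in every alternative except among the 9 libraries without lymph node transcripts (-0.951, 0 of the 10 genes called). Of the 10 genes, DESeq2 called 1 on elemental amino acids, where edgeR called 0. The lymph node term called 1 on casein, also without both muscle-rich libraries, and 2 in the averaged comparison. Leaving out each library kept the count of the 10 called at 0 to 0 in the separate comparisons and 1 to 1 in the averaged one.

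Over all genes, the elemental comparison called 37, against 213 in DESeq2, 166 with the lymph node term, 65 with that term and without both muscle-rich libraries, 8 without those libraries, 23 in its own groups, and 5 with and 0 without lymph node transcripts. The casein comparison called 579, against 915, 1120 and 1042 in the first 3 of these, 339 in its own groups, and 5 with and 172 without lymph node transcripts. The averaged comparison called 1061, against 1941 with the term, 1651 with it and without muscle-rich libraries, and 344 with and 320 without lymph node transcripts. Casein control against elemental control called 100, against 411 in DESeq2, 313 and 480 with the term, 170 without muscle-rich libraries, 2 in its own groups, and 177 with and 0 without lymph node transcripts. DESeq2 called 2 in the difference between the MR effects and 12 for oxidized casein MR against elemental MR, where edgeR called 0. Leaving out 1 library gave 7 (without elemental control 5 or elemental MR 6) to 252 (without elemental control 1) on elemental amino acids, 316 (without casein control 6) to 825 (without casein control 5) on casein, 862 to 1301 averaged, 24 (without elemental control 3) to 202 (without elemental control 2) between controls, 0 to 1 between MR diets and 0 to 0 for the difference.

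Uncalled values that turned sign were as follows. Without lymph node transcripts, the elemental differences of Pik3r1 (-0.0998), Akt1 (-0.097), Akt2 (-0.0735) and Tbc1d4 (-0.105), the casein difference of Tbc1d4 (0.155) and the averaged one of Akt1 (-0.0616) turned. So did the difference between effects for Tbc1d4 (0.261), Grb14 (-0.684) and Socs1 (1.07), the control comparison for Insr (-0.254), Pik3r1 (-0.153), Akt1 (0.16) and Sod2 (0.0673), and the MR diets for Akt1 (0.231), Tbc1d4 (0.0416), Grb14 (-0.464) and Trib1 (0.269). With lymph node transcripts, casein turned for Insr (-0.0574), Pik3r1 (-0.218) and Grb10 (-0.301). The difference between effects turned for Insr (-0.451), Irs2 (-0.435), Pik3r1 (-0.467), Grb10 (-0.111), Eif4ebp1 (-0.0225) and Ralgapa2 (-0.00386), and the MR diets for Insr (-0.292), Irs2 (-0.0671), Pik3r1 (-0.00677), Akt2 (-0.138) and Grb10 (-0.111). With the term, Grb10 turned on casein (-0.242, or -0.259 without muscle-rich libraries) and in the difference (-0.0234 or -0.065), Tbc1d4 in the difference (0.0217) and Insr between MR diets (-0.111). With the term and without muscle-rich libraries, Akt2 (-0.0882), Tbc1d4 (0.0293) and Grb10 (-0.0171) turned between MR diets. Without 1 library, Irs1 between controls ran from -0.145 (without casein control 4) to 0.158. The fit in only the groups of a comparison was not run for the difference and the average, which use all 4 diets. The term without both muscle-rich libraries was chosen after seeing the data. No paired analysis was possible because the labels give mouse numbers and no replicate number shared between diets. The smallest counts, about 106 reads of Grb10, limit precision less than the spread between mice.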
